A study of Mus musculus with 29 samples.

Results

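The genes described here are 10 genes listed as p53 targets that act in DNA repair, nucleotide supply and stress metabolism. Mouse Ddb2 is a reported exception, as given below. They are Xpc, Ddb2, Ercc5, Polk, Rrm2b, Rps27l, Sesn1, Sesn2, Fdxr and Gls2. They were chosen by symbol, all 10 were found among the 23366 genes of the count tables, and all 10 passed the filter on low counts. RNA was sequenced from blood stem and progenitor cells of C57BL/6 mice aged 8 to 12 weeks, sorted from bone marrow as lineage-negative cells bearing cKit and Sca1. The sort also used CD150, a surface receptor that marks the stem cells: the CD150-positive fraction holds them, and the CD150-negative fraction holds multipotent progenitors. The series compared mice lacking Mysm1, a deubiquitinase of histone H2A, with and without Puma, the death-promoting p53 target encoded by Bbc3.

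In CD150-negative cells there were 3 libraries in each of 4 groups, labelled wild type (Mysm1+/+Puma+/+), Puma-/- with Mysm1 intact (Mysm1+/+Puma-/-), Mysm1-/-Puma+/-, and lastly Mysm1-/-Puma-/-. The CD150-positive libraries numbered 4, 2, 4 and 7 in this order. Every library analysed here that is labelled Mysm1-/- also lacked at least 1 working copy of Puma by its label. Library names begin with A for Mysm1-/-Puma+/-, with B or P for Mysm1-/-Puma-/-, with C for Mysm1+/+Puma-/- and with D or W for wild type. Both sexes were used, per the labels. Xist, which females transcribe from their silenced X chromosome, was at 348 and 446 CPM in the A2 libraries of Mysm1-/-Puma+/- and at 13.1 or less in all others, wild type included. Its part in the comparisons was not tested. The calls of Sesn2, Rps27l, Polk and Ercc5 between Mysm1-/-Puma+/- and wild type given below held without A2. Calls of other genes in this comparison were not checked in this way. Whether each library had an animal of its own is not given in the labels, so a p-value here reflects the spread from library to library and that spread may be technical. Nor do the labels name the exons removed in the mutant alleles. Counts over whole genes therefore checked neither genotype: Mysm1 was at 78.7 to 125 CPM (counts scaled to a common library size) in the CD150-negative libraries labelled Mysm1-/-Puma+/- and at 100.2 to 109.9 in wild type. Bbc3 was at 20.2 to 29.7 CPM in those labelled Mysm1-/-Puma-/- and at 4.29 to 8.10 in wild type.

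The CD150-negative libraries held 28066870 to 54339749 counts each and the CD150-positive libraries 12304713 to 35034318. Kit, which encodes cKit, was at 462 to 821 CPM in all 29 libraries, and Ly6a, which encodes Sca1, was at 6.30 to 26.3. Slamf1, which encodes CD150, was at 0.225 to 2.36 CPM in CD150-negative and 11.2 to 30.5 in CD150-positive libraries. Background, taken as reads on 1474 genes of smell, pheromone and trace amine receptors, ran from 622 to 9004 CPM of the library totals. It exceeded 1.5 times the population's median in 1 CD150-negative library, B1, and in 3 CD150-positive libraries, namely D2, B5 and C2-5. In sorted bulk RNA, fewer cells of a type and less RNA per cell cannot be told apart.

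The transcription factor p53 is stabilised by DNA damage and other stress and switches on genes for cell cycle arrest, death, repair and metabolism. Xpc and Ddb2 encode sensors of damaged bases and Ercc5 encodes a nuclease that cuts beside the damage, all of them parts of nucleotide excision repair. Polk encodes a polymerase that copies past damaged bases, and Rrm2b encodes a subunit of ribonucleotide reductase, which makes deoxynucleotides for repair. Rps27l encodes a ribosomal protein close to Rps27 that is tied to the turnover of p53 and its regulator Mdm2. Sesn1 and Sesn2 encode sestrins, which restrain the mTOR pathway through the GATOR complexes. Fdxr encodes the mitochondrial ferredoxin reductase, and Gls2 a glutaminase. The human DDB2 gene is bound and switched on by p53, whereas the mouse gene has been reported not to be. In blood stem cells p53 governs quiescence and survival under stress, and mice lacking Mysm1 are known for p53 activation in these cells.

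A p53 site is made of a pair of 10-base repeats, each with 4 core letters that read C, A or T, A or T, G. The stretches 2000 bases to each side of the annotated gene start were searched on the NCBIM37 build for both repeats side by side, with both cores intact and at most 1 other mismatch to the p53 consensus. Of 19433 protein-coding genes, 0.515% held such a stretch. Of the 10 genes described here 1 did, Rps27l, and its site is shown with that of Cdkn1a, the classic arrest gene of p53, because the pair can be compared letter by letter. The cores are in capitals.
Rps27l: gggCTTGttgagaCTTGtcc
Cdkn1a: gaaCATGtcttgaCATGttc
The Rps27l stretch lay at chr9:66794103-66794122, with its centre 219 bases past the gene start, in intron 1 of the annotated transcripts that span it. The Cdkn1a stretch lay at chr17:29227873-29227892, 42 bases before the start. Each had 1 mismatch to the consensus. With up to 3 mismatches 9.08% of all genes and again 1 of the 10 had a match. That no match was found for the other 9 says only that these letters were not in this window.

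Promoters were taken from RefSeq (build GRCm38.p6) as the 250 bases before each start, and were found for 6 of the 10 genes with 9 starts in all. Those of Sesn2, Ercc5 and the outermost start of Polk are shown because these genes were called higher without Mysm1, as given below for each. Capitals mark the GC box GGGCGG, which binds Sp factors, on either strand.
Sesn2: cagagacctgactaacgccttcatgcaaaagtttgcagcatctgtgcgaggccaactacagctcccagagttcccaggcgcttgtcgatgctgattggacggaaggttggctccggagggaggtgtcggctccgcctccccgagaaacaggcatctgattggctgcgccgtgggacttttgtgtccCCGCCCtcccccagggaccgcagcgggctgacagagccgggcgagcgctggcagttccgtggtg
Ercc5: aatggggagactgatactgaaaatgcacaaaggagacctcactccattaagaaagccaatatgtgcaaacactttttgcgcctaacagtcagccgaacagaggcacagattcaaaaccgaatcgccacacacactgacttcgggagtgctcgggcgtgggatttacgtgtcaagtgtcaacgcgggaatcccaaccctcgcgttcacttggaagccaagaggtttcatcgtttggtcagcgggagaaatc
Polk: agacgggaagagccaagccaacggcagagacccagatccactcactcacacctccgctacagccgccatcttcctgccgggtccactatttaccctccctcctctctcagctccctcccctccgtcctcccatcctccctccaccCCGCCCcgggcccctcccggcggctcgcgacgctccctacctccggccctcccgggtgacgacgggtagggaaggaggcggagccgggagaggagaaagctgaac
These stretches lay on GRCm38.p6 at chr4:132510457-132510706 on the minus strand, chr1:44147494-44147743 on the plus strand and chr13:96542580-96542829 on the minus strand. Sesn2 and Polk each held 1 GC box and Ercc5 none, while 32.7% of 32851 mouse promoters of this length held at least 1. A single p53 repeat with no mismatch was in 3 of the 9 member promoters and in 7.13% of all promoters. It was in 1 promoter each of Rps27l, Sesn1 and Polk, for Polk at the inner start, and in none of the 3 printed here. The element TGATGCAA, which binds Atf4 in the amino acid response and was searched on both strands, was in none of the 9 member promoters and in 0.791% of all.

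Loss of Mysm1 went with more Sesn2, Rps27l, Ercc5 and Polk RNA in CD150-negative cells, while the repair sensors Xpc and Ddb2, the reductase subunit Rrm2b and the metabolic genes Sesn1, Fdxr and Gls2 did not pass the test. Between Mysm1-/-Puma+/- and wild type, 4 of the 10 were called higher and none lower. Across all 21168 genes tested 0.638% were called higher. The test was edgeR's quasi-likelihood F test with Benjamini-Hochberg adjustment over all genes, and a gene was called at an adjusted p under 0.05. In CD150-positive cells only Sesn2 was called higher in this comparison, where 0.372% of 20944 genes were. The median log2 fold change of the 10 genes was 0.29 in CD150-negative and 0.36 in CD150-positive cells, beside medians of -0.05 and -0.05 over all genes. At an unadjusted p under 0.05, 4 of the 10 were higher in CD150-negative and 4 in CD150-positive cells, and none was lower in either, beside 5.53% and 5.38% of all genes higher.

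**Figure D1:**
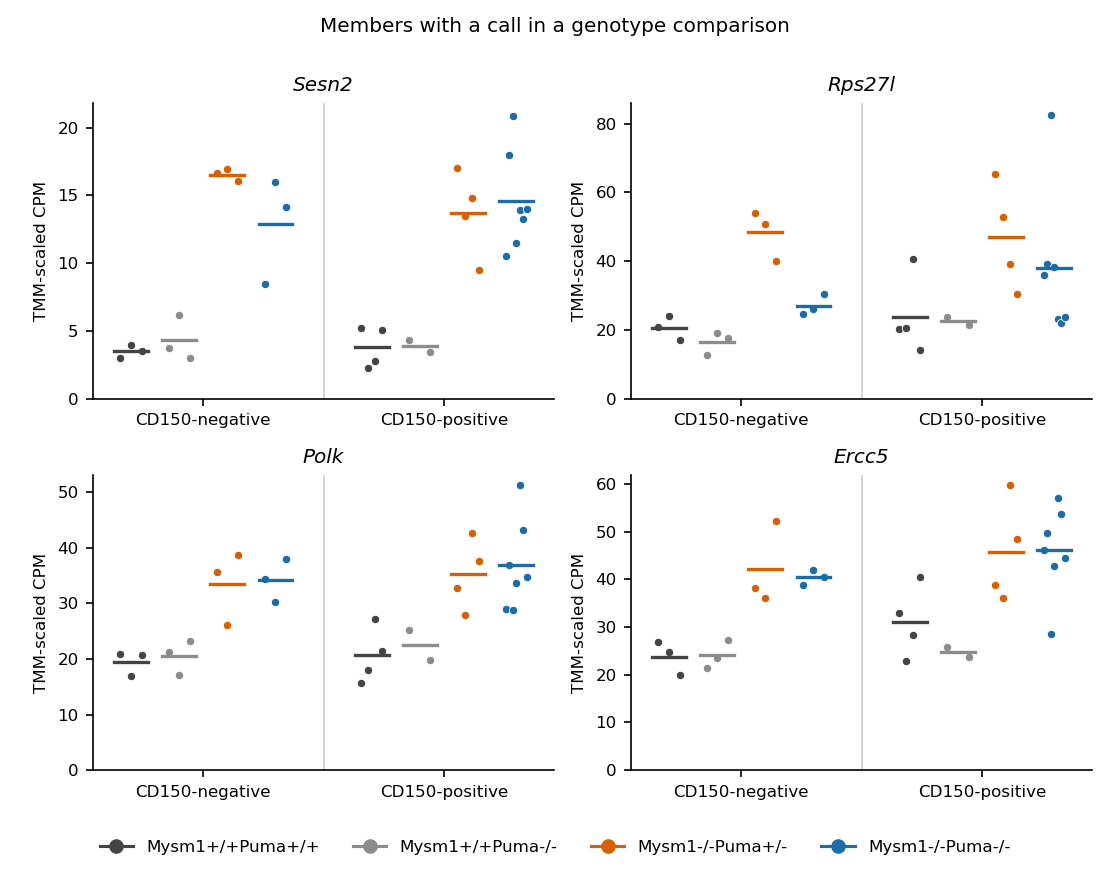
TMM-scaled CPM (vertical axis, from 0) of Sesn2, Rps27l, Polk and Ercc5 in each library (points) with group means (lines), for CD150-negative and CD150-positive cells and the 4 genotype groups in colour. Every Sesn2 value labelled Mysm1-/- lies above every Mysm1+/+ value, and the Rps27l value of 82.4 stands alone in CD150-positive Mysm1-/-Puma-/-.

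Sesn2, the inducible sestrin (chromosome 4, 132047947 to 132066416, minus strand, NCBIM37) gave the largest difference of the 10 in this comparison, in both populations. In CD150-negative cells its level, in CPM scaled within each population by TMM, a correction for library composition, was 3.02, 3.96 and 3.48 in wild-type libraries D2, D3 and D4. It was 16.6, 16.9 and 16.03 in A1, A2 and A3 of Mysm1-/-Puma+/-, so the groups were far apart and the A libraries were nearly level. The log2 fold change was 2.24 ± 0.29 (SE), a 4.72-fold difference at an adjusted p of 0.00036. In Mysm1-/-Puma-/- libraries B1, B3 and B5 it was 8.46, 16 and 14.1, with B1 the lowest yet above every Mysm1+/+ library. That group exceeded wild type by 1.88 ± 0.29 (adjusted p 0.00122). With Puma lost and Mysm1 intact, C2, C3 and C5 had 3.74, 6.17 and 2.97, which overlapped wild type. Against these, Mysm1-/-Puma-/- was higher by 1.58 ± 0.28 (adjusted p 0.00614).

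The CD150-positive libraries showed the same split for Sesn2. Wild-type libraries D1, D2, D3-4 and W1 had 5.22, 2.24, 2.78 and 5.08 CPM, and Mysm1+/+Puma-/- libraries C1-4 and C2-5 had 4.35 and 3.42. Mysm1-/-Puma+/- libraries A1 to A4 had 17.0, 13.5, 14.8 and 9.52, and the 7 Mysm1-/-Puma-/- libraries ran from 10.5 through a median of 13.9 to 20.9. No library labelled Mysm1-/- overlapped one with Mysm1 intact. Sesn2 was higher than in wild type by 1.83 ± 0.30 in Mysm1-/-Puma+/- (adjusted p 0.00284) and by 1.92 ± 0.28 in Mysm1-/-Puma-/- (adjusted p 0.000656). Against Mysm1+/+Puma-/- the difference was 1.90 ± 0.37 (adjusted p 0.0444). That last call was lost in 10 of 17 fits that left out 1 library, 8 of them libraries other than its 2 controls. The adjusted p was 0.442 without C1-4, 1 without C2-5 and 0.736 without the 3 high-background libraries, with log2 fold changes of 2.09, 1.75 and 1.62. The other 5 calls of Sesn2 held when any 1 library was left out. A non-coding transcript, Gm12981, is annotated over Sesn2 on its own strand, so reads of that transcript could not be told apart from those of Sesn2.

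Rps27l, the ribosomal protein gene with the p53 site printed above (chromosome 9, 66793893 to 66797323, plus strand), was the other large rise in CD150-negative cells. Wild-type libraries had 20.8, 23.9 and 17.0 CPM, and A1, A2 and A3 had 54.0, 50.9 and 40.1. The groups did not overlap, and the log2 fold change was 1.23 ± 0.19 (adjusted p 0.00191), which held when any 1 library was left out. In Mysm1-/-Puma-/- libraries B1, B3 and B5 it was 24.5, 26.0 and 30.5, only just above wild type (0.39 ± 0.19, adjusted p 0.386). Rps27l was the only one of the 10 to differ between Mysm1-/-Puma-/- and Mysm1-/-Puma+/-, lower by a log2 fold change of -0.84 ± 0.19 (adjusted p 0.0375), where 1.05% of all genes were called lower. This call was lost without A1, A2, B1, B3, D2 or D3, at adjusted p-values from 0.0611 to 0.196. Against Mysm1+/+Puma-/-, where C2, C3 and C5 had 12.5, 19.1 and 17.7, Mysm1-/-Puma-/- differed by 0.71 ± 0.19 (adjusted p 0.0814).

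Rps27l has a deposited length of 464 bases, and libraries differed in their share of counts on genes shorter than 600 bases. That share was 8.04% to 8.78% in CD150-negative Mysm1-/-Puma+/-, 8.25% to 9.16% in wild type, 8.13% to 8.58% in Mysm1+/+Puma-/- and 5.05% to 6.29% in Mysm1-/-Puma-/-. The share thus moved with the lower Rps27l level of Mysm1-/-Puma-/- libraries, and its part in that difference was not tested, while Mysm1-/-Puma+/- and wild type overlapped in it. In CD150-positive cells Rps27l was spread widely. A1 to A4 had 65.5, 52.9, 39.1 and 30.3 CPM and the wild-type libraries D1, D2, D3-4 and W1 had 20.2, 20.7, 40.6 and 14.1, so the groups overlapped through D3-4 (0.97 ± 0.36, adjusted p 0.433). The 7 Mysm1-/-Puma-/- libraries ran from 22.1 through 35.98 to 82.4. P1, P2 and P3, a second naming series, had 23.1, 22.1 and 23.8 beside 35.98 to 82.4 in the B libraries. Their short-gene shares were 7.47%, 5.93% and 5.82% beside 7.56% to 8.94%. Of 522 stretches of 50 bases in the Rps27l exons, 4.98% occur elsewhere in the genome, so some of its reads could have come from copies. Rps27, its paralogue, was listed at 1.12 to 1.75 CPM as group means in CD150-negative cells and was not called in any genotype comparison. Whether so low a value reflects the true level of Rps27 is not known, so it says little about a change of that gene.

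**Figure D2:**
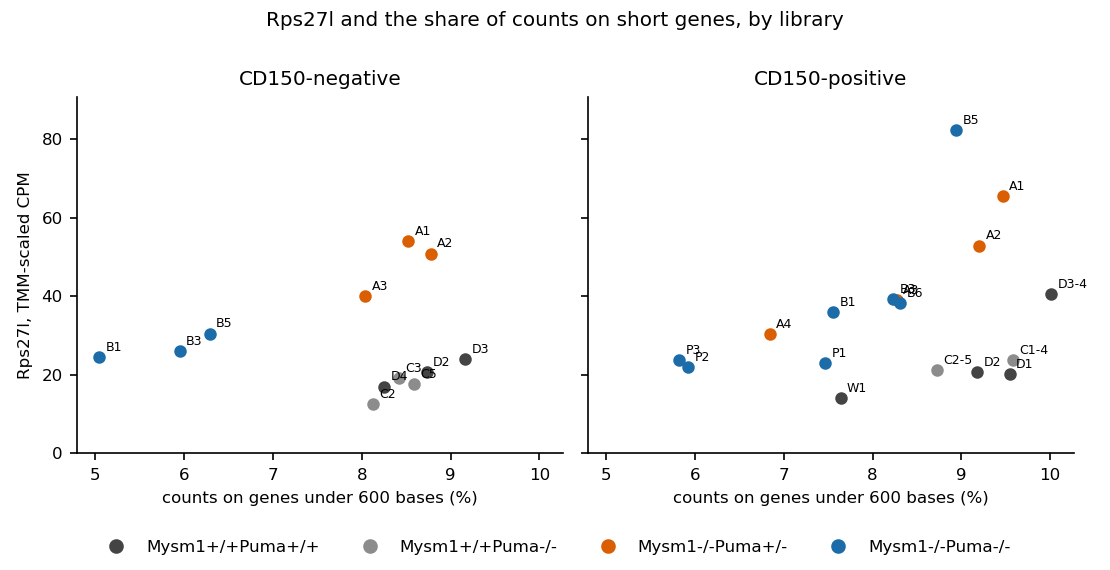
Rps27l level (TMM-scaled CPM, vertical axis from 0) against the percentage of a library's counts on genes under 600 bases (horizontal axis), 1 point per library, coloured by genotype. The CD150-negative Mysm1-/-Puma-/- libraries sit apart at 5.05% to 6.29%, whereas Mysm1-/-Puma+/- and wild type share the range above 8% and differ in level.

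Polk and Ercc5 rose together and by like amounts in CD150-negative cells. Polk (chromosome 13, 97250644 to 97312440, minus strand), which overlaps Gm17622 on the other strand, had 20.8, 16.9 and 20.7 CPM in wild type, 35.6, 26.1 and 38.7 in A1 to A3, and 34.4, 30.3 and 37.9 in B1, B3 and B5. C2, C3 and C5 had 21.3, 17.0 and 23.3, and both Mysm1-/- groups lay wholly above both Mysm1+/+ groups. The log2 fold change was 0.78 ± 0.18 in Mysm1-/-Puma+/- (adjusted p 0.0484) and 0.81 ± 0.18 in Mysm1-/-Puma-/- (adjusted p 0.0201). Against Mysm1+/+Puma-/- the difference of 0.73 ± 0.18 just missed the threshold (adjusted p 0.0528). The first call stood at the edge of the threshold and was lost in 10 of 12 fits that left out 1 library, at adjusted p-values up to 0.225 and log2 fold changes of 0.67 or more. The second was lost without D2, D3, D4, B1 or B5, at up to 0.113.

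Ercc5 (chromosome 1, 44204589 to 44238105, plus strand) had 26.8, 24.8 and 19.9 CPM in CD150-negative wild type and 21.4, 23.5 and 27.3 in C2, C3 and C5. It was at 38.2, 36.1 and 52.1 in A1 to A3 and at 38.8, 41.9 and 40.5 in B1, B3 and B5, again with no overlap. The difference from wild type was 0.82 ± 0.17 in Mysm1-/-Puma+/- (adjusted p 0.0221) and 0.76 ± 0.17 in Mysm1-/-Puma-/- (adjusted p 0.02). Against Mysm1+/+Puma-/- it was 0.75 ± 0.17 (adjusted p 0.0323). The first call was lost without A3 (0.0592), D3 (0.0871) or D4 (0.179), the second without B1, B3, D3 or D4, and the third without any of C2, C3, C5, B1, B3 or B5, at adjusted p-values of 0.193 or less.

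In CD150-positive cells Polk and Ercc5 were not called. The Polk estimates were of like size to those in CD150-negative cells, and those of Ercc5 against wild type were smaller. Between Mysm1-/-Puma-/- and the 2 libraries of Mysm1+/+Puma-/-, Polk differed by 0.71 ± 0.25 (adjusted p 0.452) and Ercc5 by 0.89 ± 0.25 (adjusted p 0.321), both without overlap. Polk had 32.8, 27.9, 42.6 and 37.5 CPM in A1 to A4 and 15.7, 18.1, 27.3 and 21.5 in wild type, which did not overlap (0.77 ± 0.21, adjusted p 0.135). Mysm1-/-Puma-/- libraries ran from 28.8 through 34.8 to 51.3, above all wild-type values (0.83 ± 0.19, adjusted p 0.0622). Ercc5 had 38.8, 36.2, 59.8 and 48.5 CPM in A1 to A4 and 32.9, 22.9, 28.2 and 40.5 in wild type, so W1 overlapped the A libraries (0.56 ± 0.21, adjusted p 0.435). Mysm1-/-Puma-/- libraries had 28.4 to 57.1 with a median of 46.1 (0.56 ± 0.19, adjusted p 0.385), and B5 was the lowest of them. The response to Mysm1 loss was compared between the populations in 1 fit of all 29 libraries, and the difference passed in none of the 10 genes, where 0.00916% of 21830 genes passed. For Sesn2, CD150-positive minus CD150-negative, it was -0.45 with a 95% interval from -1.26 to 0.35. For Polk it was -0.05 (-0.60 to 0.50), for Ercc5 -0.31 (-0.85 to 0.23) and for Rps27l -0.31 (-1.27 to 0.66), intervals that leave room for unequal responses.

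**Figure D3:**
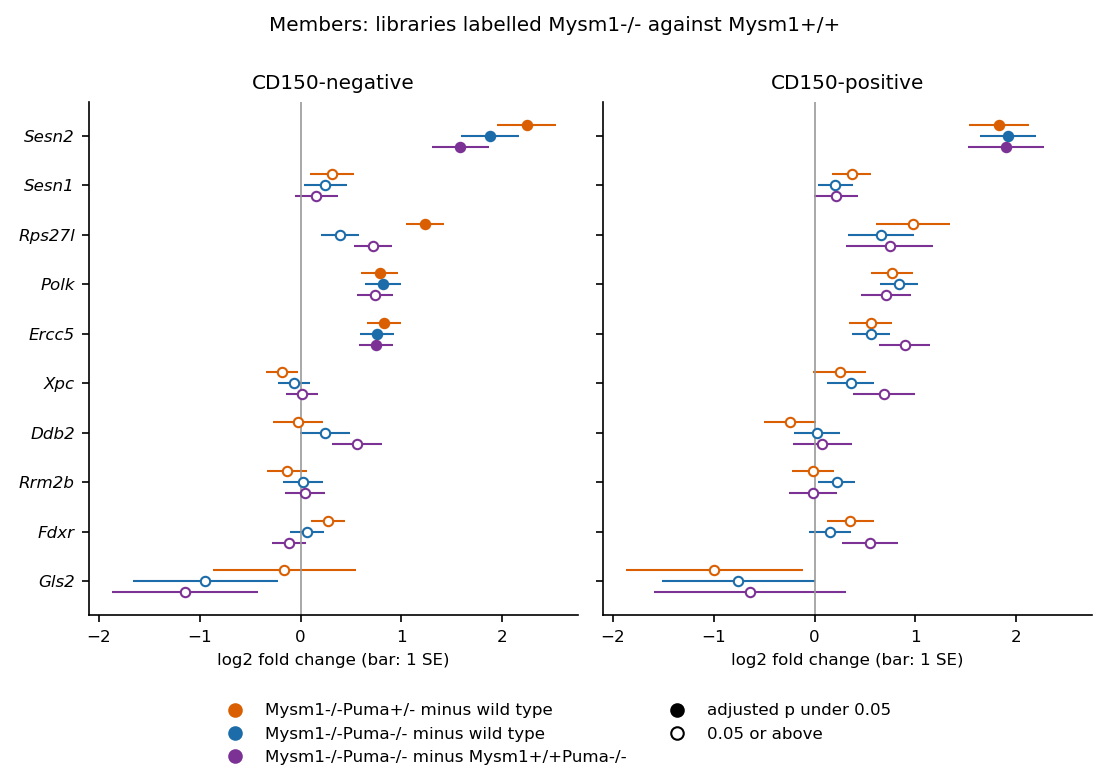
Log2 fold change (horizontal axis, bars of 1 SE) of each of the 10 genes in the 3 comparisons of libraries labelled Mysm1-/- with Mysm1+/+ libraries, by population. Filled points have an adjusted p under 0.05: Sesn2 in all 6 cases, Ercc5 in 3, Polk in 2 and Rps27l in 1, while the other 6 genes have open points only.

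The remaining comparisons ask whether the rises persist without Puma and what Puma loss does by itself. Between Mysm1-/-Puma-/- and wild type, 3 of the 10 were called higher in CD150-negative cells (0.704% of all genes) and 1 in CD150-positive cells (0.248%). Between Mysm1-/-Puma-/- and Mysm1+/+Puma-/-, 2 were called higher in CD150-negative cells (0.411%) and 1 in CD150-positive cells (0.0907%). These comparisons share libraries with each other, so they do not support one another. Puma loss with Mysm1 intact called none of the 10 in either population and no gene at all (0% and 0%), and at an unadjusted p under 0.05 none of the 10 differed, beside 0.798% of genes higher and 0.732% lower in CD150-negative and 0.735% and 0.482% in CD150-positive cells. DESeq2 also called none of the 10 in these comparisons. In CD150-positive cells Puma loss in the absence of Mysm1 called no gene either (0%), with none of the 10 under an unadjusted p of 0.05. There Sesn2 differed by 0.09 with a 95% interval from -0.41 to 0.58 and Rps27l by -0.31 with -0.93 to 0.31. The Mysm1-/-Puma-/- group there included the P libraries, a second naming series, and Mysm1-/-Puma+/- had none. Puma loss and naming series were thus not fully separated. Rps27l was at 22.1 to 23.8 CPM in the P libraries, below the 30.3 to 65.5 of A1 to A4. The B libraries, at 35.98 to 82.4, overlapped A1 to A4. Over the alternative fits the Rps27l estimate ran from -0.63 to 0.06.

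Some markers of other cells also differed between Mysm1-/-Puma+/- and wild type. The summed level of 5 megakaryocyte markers, none at 0 across a group, was 52.6 to 67.8 CPM in CD150-negative Mysm1-/-Puma+/- and 30.4 to 39.2 in wild type, and 425 to 872 beside 172 to 373 in CD150-positive cells. In Mysm1-/-Puma-/- it was 43.6 to 55.3 in CD150-negative cells, above wild type. In CD150-positive Mysm1-/-Puma-/- cells it was 311 to 659, which overlapped wild type. The sum of 5 T and NK markers was 35.8 to 51.7 in CD150-negative Mysm1-/-Puma+/- and 26.3 to 32.6 in wild type. It was 34.9 to 42.3 in CD150-negative Mysm1-/-Puma-/-, above wild type, and 25.8 to 42.1 in Mysm1+/+Puma-/-, which overlapped the other groups. In CD150-positive cells Mysm1-/-Puma+/- and wild type overlapped in it, at 39.3 to 59.6 beside 33.2 to 64.2. Sums of 8 granulocyte, 4 monocyte, 6 B lineage, 6 erythroid and 3 stromal markers overlapped between Mysm1-/-Puma+/- and wild type in both populations, and the haemoglobin gene Hba-a1 was at 0 in both of these CD150-negative groups. The part of these cells in the rises of Sesn2, Rps27l, Polk and Ercc5 was not tested.

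The damage sensors and the reductase subunit did not pass in any genotype comparison. Xpc (chromosome 6, 91439299 to 91465878, minus strand) was at 235, 260.0 and 355 CPM in CD150-negative A1 to A3 and at 285, 353 and 331 in wild type (-0.19 ± 0.16, adjusted p 0.785). Ddb2 (chromosome 2, 91051729 to 91077139, minus strand), which overlaps Acp2 on the other strand, had 11.6, 7.08 and 7.55 beside 9.85, 8.95 and 7.92 (-0.03 ± 0.25, adjusted p 0.986). The intervals of these differences ran from -0.50 to 0.12 for Xpc and from -0.52 to 0.46 for Ddb2. A doubling of either lies outside them in this comparison of CD150-negative cells. Rrm2b (chromosome 15, 37853707 to 37891073, minus strand) had 18.8, 21.5 and 34.2 beside 26.3, 27.4 and 27.9, with A3 above and A1 and A2 below all wild-type libraries (-0.13 ± 0.20, adjusted p 0.899). The pseudogene Gm3362 is annotated over Rrm2b on its own strand, and 1.73% of the 50-base stretches of its exons occur elsewhere in the genome. Of its group means the highest was 1.22 times the lowest over all 8 groups, the narrowest span of the 10. In Mysm1-/-Puma-/- against Mysm1+/+Puma-/- the CD150-negative estimate for Ddb2 was 0.56 ± 0.25 (adjusted p 0.411). Its interval, 0.07 to 1.05, includes a doubling, and the libraries, at 8.50 to 12.0 and 5.43 to 8.13 CPM, did not overlap. The CD150-positive estimate for Xpc in this comparison was 0.69 ± 0.31 (adjusted p 0.497). There P1, P2 and P3 had 190.5, 199.2 and 188 CPM and the B libraries 72.3 to 150, beside 111 and 74.0 in C1-4 and C2-5.

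Among the metabolic genes other than Sesn2, Sesn1 (chromosome 10, 41530380 to 41628230, plus strand) had 112, 111 and 199.8 CPM in CD150-negative A1 to A3 and 105, 126 and 109.6 in wild type, with A3 alone well above (0.31 ± 0.22, adjusted p 0.716). In CD150-positive cells A1 to A4 had 90.7, 71.2, 90.7 and 68.9, all above the wild-type libraries at 67.8, 46.2, 67.8 and 67.5, yet the difference did not pass (0.37 ± 0.19, adjusted p 0.608). Fdxr (chromosome 11, 115129338 to 115138364, minus strand) had 17.99, 21.2 and 21.6 in CD150-negative A1 to A3 and 17.3, 17.2 and 15.8 in wild type, which did not overlap but lay close (0.27 ± 0.17, adjusted p 0.675). Gls2 (chromosome 10, 127631513 to 127647060, plus strand), which overlaps Spryd4 on the other strand, was low, at 0 to 94 counts and 0 to 4.00 CPM in all 29 libraries. Its highest value was in D2 of CD150-positive cells, a library with high background. Its estimates had standard errors of 0.71 to 1.07 in the comparisons of genotypes, so these data set only wide limits on a change of Gls2. Libraries of 1 group differed widely, as in CD150-negative wild type with 13, 53 and 92 counts. Per kilobase of the deposited length, wild-type CD150-negative means ran from 88.9 CPM for Xpc and 44.3 for Rps27l through 19.6 for Sesn1, 8.98 for Fdxr, 6.03 for Rrm2b, 5.94 for Ercc5, 4.65 for Ddb2 and 4.61 for Polk to 1.31 for Sesn2 and 0.52 for Gls2.

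**Figure D4:**
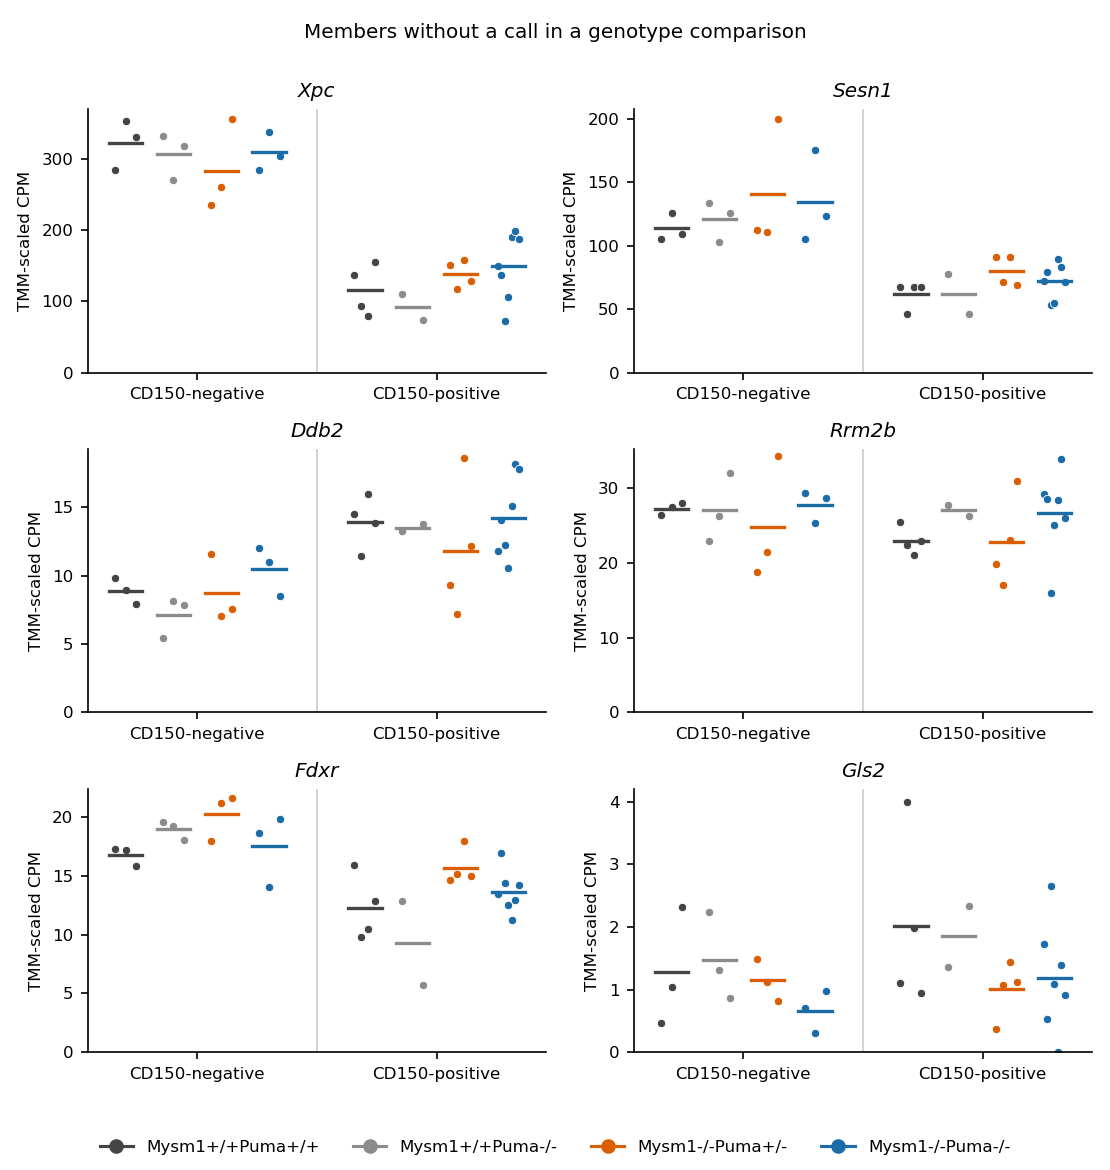
TMM-scaled CPM (vertical axis, from 0) of Xpc, Sesn1, Ddb2, Rrm2b, Fdxr and Gls2 in each library (points) with group means (lines), by population and genotype. Xpc and Sesn1 lie lower in the CD150-positive part of their panels in each of the 4 genotype groups, and the genotype groups of a population overlap in most cases.

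Xpc and Sesn1 differed between the populations and were not called between genotypes. In wild type Xpc was at 137, 93.0, 80.0 and 155 CPM in CD150-positive D1, D2, D3-4 and W1, below the 285 to 353 of CD150-negative cells. The log2 fold change, tested in the fit of all libraries, was -1.44 ± 0.24 (adjusted p 0.000144). Sesn1 was lower by -0.83 ± 0.20 (adjusted p 0.00614), with 46.2 to 67.8 CPM in CD150-positive and 105 to 126 in CD150-negative wild type. These 2 of the 10 were called lower in CD150-positive cells, where 4.05% of genes were, and none was called higher. The tests between populations took all libraries as independent, although 7 library names occur in both populations. The A2 libraries of both were high in Xist, and whether libraries of 1 name share animals is not given in the labels.

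The same 2 genes were called lower in CD150-positive cells of Mysm1-/-Puma+/- (3.24% of genes) and of Mysm1-/-Puma-/- (7.14% of genes). Xpc differed by -1.04 ± 0.24 (adjusted p 0.0057) and -1.09 ± 0.21 (adjusted p 0.000435) and Sesn1 by -0.82 ± 0.20 (adjusted p 0.00805) and -0.94 ± 0.17 (adjusted p 0.000268). In Mysm1-/-Puma+/- both calls were lost without the CD150-negative library A3, at -0.85 (adjusted p 0.0591) for Xpc and -0.49 (adjusted p 0.186) for Sesn1. Sesn1 was also lost there without A2 (0.0727) or A4 (0.0773) of CD150-positive cells, and in Mysm1-/-Puma-/- without B3 of CD150-negative cells (-0.63, adjusted p 0.077). Of the 7 Mysm1-/-Puma-/- libraries of CD150-positive cells B5 had the least Xpc, at 72.3, and P1, P2 and P3 the most, at 190.5, 199.2 and 188. Ddb2 had the opposite order in wild type, at 11.5 to 15.99 CPM in CD150-positive and 7.92 to 9.85 in CD150-negative libraries, with no overlap, but was not called (0.68 ± 0.26, adjusted p 0.135). Sesn2, Polk and Rps27l were close in both populations of wild type, with estimates of 0.17 ± 0.30, 0.12 ± 0.20 and 0.25 ± 0.35.

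The partners of these genes in their pathways were looked up in 6 lists besides a list of other p53 targets. In the comparison of Mysm1-/-Puma+/- with wild type none of the 27 genes of nucleotide excision repair, 9 of translesion synthesis, 13 of deoxynucleotide supply, 18 of the sestrin and GATOR system, 15 of glutamine metabolism and 14 of iron-sulphur assembly was called in either population. Over all genes 0.869% and 0.454% were called in either direction in CD150-negative and CD150-positive cells. At such shares lists of this size would often hold no call, so that result says little about these partners. The median log2 fold changes of these lists lay between -0.09 and 0.19 in CD150-negative and between 0.05 and 0.21 in CD150-positive cells. The list of other p53 targets was chosen with earlier results of these data known, so its counts are no independent support. Over all genes 0.638% were called higher in CD150-negative and 0.372% in CD150-positive cells. The other p53 targets were called higher in 14 of 31 cases in CD150-negative cells (median 0.79) and in 12 of 31 in CD150-positive cells (median 0.68), and none was called lower. Those with the smallest p were Ak1, an adenylate kinase, Psrc1, a spindle protein, and Cdkn1a in CD150-negative cells, at 3.82, 2.27 and 3.8. In CD150-positive cells they were Bbc3, Psrc1 and Cdkn1a, at 2.43, 2.27 and 3.81. Over that list log2 fold changes ran from -0.72 to 5.22 in CD150-negative and from -0.69 to 5.30 in CD150-positive cells, and the 2.24 and 1.83 of Sesn2 lay inside these ranges.

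**Figure D5:**
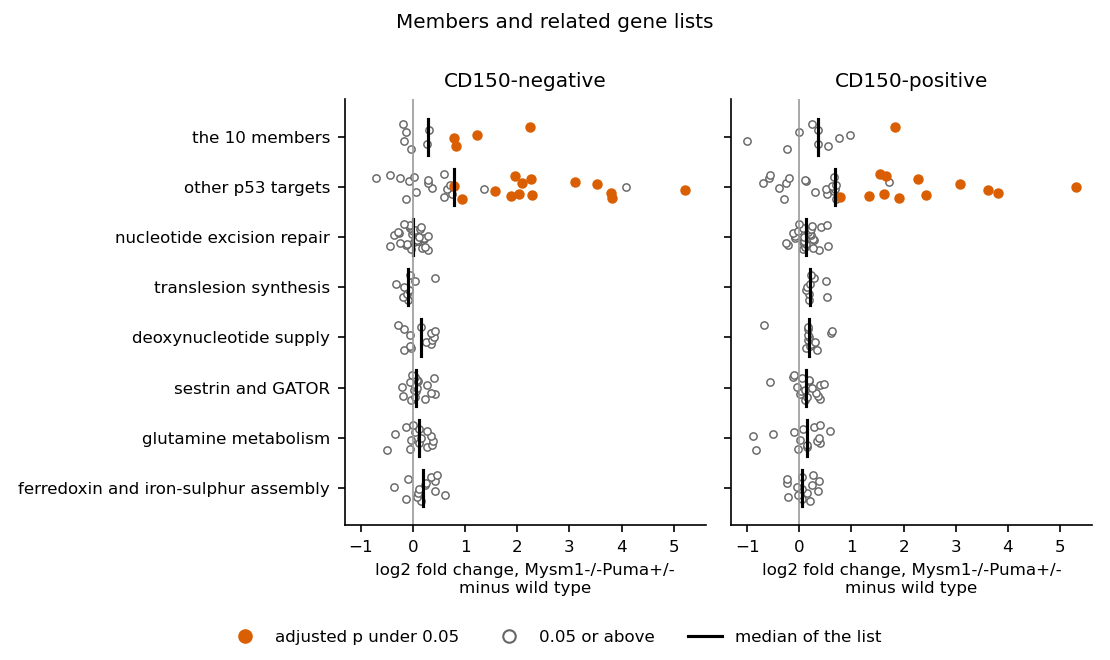
Log2 fold change of Mysm1-/-Puma+/- against wild type (horizontal axis) for the 10 genes and for each related list (rows), 1 point per gene, with list medians as black lines, by population. Filled points, with an adjusted p under 0.05, occur among the 10 genes (4 and 1) and the other p53 targets (14 and 12) and in no other list.

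Close relatives of the 10 genes were not called between Mysm1-/-Puma+/- and wild type. Sesn3, the third sestrin, differed by 0.39 in CD150-negative and 0.06 in CD150-positive Mysm1-/-Puma+/- cells, and Polh, another bypass polymerase, by -0.08 and 0.12, none of them called. The excision repair genes Ercc1, Ercc4, Ddb1 and Rad23b differed by -0.44, -0.24, 0.23 and 0.05 in CD150-negative cells, also uncalled. Rrm1 and Rrm2, the reductase subunits of dividing cells, differed by -0.06 and 0.34 there without passing. In CD150-negative Mysm1-/-Puma-/- cells Rrm1 and Rrm2 were lower than in wild type by log2 fold changes of -0.90 (adjusted p 0.0141) and -0.77 (adjusted p 0.0281), while Rrm2b differed by 0.03 ± 0.20 (adjusted p 0.992). In the same comparison 3 of the 13 deoxynucleotide genes, 3 of the 27 excision repair genes and 2 of the 9 translesion genes were called lower and none higher, where 1.61% of all genes were called lower. Named after their values were seen, these were Rrm1, Rrm2 and Tk1, then Lig1, Pole and Rpa1, then Pcna and Polq. Of these, Lig1, Pole, Rpa1 and Pcna serve DNA replication as well.

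The 8 group means give a description of which genes vary alike. They are taken on a log2 scale, share libraries and are no test. Sesn2 and Polk had a Pearson r of 0.97 over the 8 groups, Polk and Ercc5 0.95, Sesn2 and Rps27l 0.87, and Xpc and Sesn1 0.96. Xpc and Ddb2 ran opposite, at -0.83. Among 10606 genes whose mean log2 CPM was 2 or more, the closest to Sesn2 was Exoc4 (r 0.995), a subunit of the exocyst, and the closest to Polk was Slc25a36 (0.98), a mitochondrial nucleotide carrier. Ercc5 was closest to Gbp2 (0.97), Rps27l to Ccdc58 (0.96), Xpc to Coro2a (0.997) and Sesn1 to Ccl9 (0.995). Of 25 other p53 targets in that set, 14 were among the 100 genes most like Sesn2, 9 for Polk, 9 for Ercc5 and 7 for Rps27l, and none for Xpc, Sesn1, Ddb2, Rrm2b, Fdxr or Gls2. These targets come from the list chosen with earlier results of these data known.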

How the data were processed

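Per the labels' protocols, RNA of sorted cells was depleted of ribosomal RNA and made into stranded, paired libraries with reads of 50 bases. Per the submitters' processing notes, the authors used FastQC, Trimmomatic 0.33, TopHat2 2.0.9 with Bowtie 1.0.0 on mm9, featureCounts, edgeR and R 3.4.2. The deposited count tables hold whole counts per gene. The deposited CPM table holds CPM values made by the authors, used in 1 alternative at log2(CPM + 1). The annotation, strand setting and handling of reads with several matches are not given in the sources used here, so reads of overlapping genes on opposite strands may not be separated.

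Counts were filtered with filterByExpr, scaled by TMM and tested with the quasi-likelihood test of edgeR 4.0.16 in R 4.3.3, each population in a fit of its own and populations against each other in a fit of all 29 libraries. Levels were scaled within each population. Adjustment was Benjamini-Hochberg over all genes, at 0.05. Standard errors were taken as the log2 fold change over the root of F, and intervals as 1.96 of them. Alternatives used RLE scaling, DESeq2 1.42.0, limma 3.58.1 (voom with sample weights, and trend on CPM), no filter, the compared groups alone, background as a covariate, a replicate block and left-out libraries. Leaving out high-background libraries was chosen after seeing the data. The fit was tested on simulated data. The members and lists were chosen with earlier results of these data known. Genes named were the 10 members, Mysm1 and Bbc3, up to 3 called genes per list with the smallest p, paralogues fixed by name (1 is not reported here) and the gene most like each member, plus those marked in the text.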

Additional observations from a re-analysis of the deposited data

Results flagged for a closer look

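Sets of 1 gene in 1 group of 4 to 7 libraries, 30 in all, were tested for a single library far from the rest. Of these, 3 had one, where chance gives about 1 in 20. The sets share libraries, so they are not independent. In CD150-positive Mysm1-/-Puma-/- cells, Rps27l was at 82.4 CPM in B5, far above the next library at 39.3, and the lowest had 22.1. In CD150-positive wild type, Sesn1 was at 46.2 CPM in D2, far below the others at 67.5 to 67.8. In CD150-positive Mysm1-/-Puma+/- cells, Fdxr was at 17.97 CPM in A3, above the others at 14.6 to 15.1. Libraries B5 and D2 were among those with high background, at 7491 and 8186 CPM on receptor genes, and its part in these values was not tested.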

How the results depend on the processing

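All 522 alternative values of the 19 called results kept their direction, and 452 were still called. Of 3384 alternative values of the 121 uncalled results, 21 were called, for Polk (14), Rps27l (6) and Ercc5 (1). The numbers called among the 10 genes moved as follows, and the cause was not tested. For Mysm1 loss without Puma in CD150-positive cells (1), 0 were called with RLE, background as a covariate, voom, no P and W libraries or no high-background libraries. For double loss in CD150-positive cells (1), 2 were called with the background covariate, DESeq2 or limma-trend. For double loss in CD150-negative cells (3), 1 was called without the high-background library. For Mysm1 loss without Puma there (2), 1 was called without that library and 4 with voom, limma-trend or DESeq2. For Puma loss without Mysm1 there (1), 0 were called without that library or with the compared groups alone. With the compared groups alone, 2 were called for Mysm1 loss in CD150-negative cells (4) and 1 between populations of Mysm1-/-Puma+/- (2).

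Leaving out 1 library at a time gave 2 to 4 calls for Mysm1 loss in CD150-negative and 1 to 1 in CD150-positive cells, 1 to 3 and 1 to 2 for double loss, and 1 to 4 and 0 to 1 for Mysm1 loss without Puma. Puma loss without Mysm1 gave 0 to 1 in CD150-negative cells. The populations differed in 2 to 2 genes in wild type, 0 to 2 in Mysm1-/-Puma+/- and 1 to 2 in Mysm1-/-Puma-/-, and all other comparisons gave 0 to 0.

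Whether the replicate numbers pair the samples was not settled. Same-numbered libraries deviated together with r from -0.339 to 0.309 over 11 pairs in CD150-negative cells, 4 of them above 0.1. In CD150-positive cells r ran from -0.0751 to 0.333 over 6 pairs, 3 of them above 0.1. Libraries of the same name in both populations gave -0.0789 to 0.420 over 7 pairs, 4 of them above 0.1, and bear on the comparisons between populations. With the replicate block, 1 gene was called for Mysm1 loss, 1 for double loss, 1 for Mysm1 loss without Puma and 0 for Puma loss without Mysm1 in CD150-negative cells, and 3 for Mysm1 loss and 3 for double loss in CD150-positive cells. The comparisons with Mysm1+/+Puma-/- in CD150-positive cells, the interaction and the wild-type populations could not be fitted with it. Gls2 had no more than 94 counts in any library.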
